A study of Mus musculus with 2 samples.

Results

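Mineralization of the fetal femur was followed through 10 genes, namely Alpl, Phospho1, Enpp1, Ibsp, Spp1, Dmp1, Mepe, Phex, Bglap and Bglap2. They were taken as a named list of mineral-forming enzymes and bone matrix proteins and not by their values, though earlier results of these data were known when the list was chosen. All 10 were present in both deposited count tables, among 21147 genes with a UMI (a counted transcript) in the kept wild-type cells and 21214 in the kept mutant cells. The study compared femur cells, which it calls bone marrow, of C57BL/6 mouse embryos at E18.5, shortly before birth. It used single cell RNA sequencing (BD Rhapsody), with 1 library per genotype. The WT library came from wild-type embryos. The Bmx-CreER Wls library came from embryos in which, per the study's methods, a tamoxifen-inducible Cre under the control of Bmx, active in arterial endothelial cells, acts on floxed Wls alleles, and Wls encodes the protein that Wnt ligands need for secretion. Both libraries share the same preparation, in which dissected femurs were crushed and digested with collagenase. Cells of committed blood lineages were then removed with magnetic beads. The number of embryos behind each library is not given in the sources used here, nor is whether the wild-type embryos were exposed to tamoxifen, so genotype, litter and library cannot be told apart.

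With 1 library per genotype there was no replicate check, and no difference between the libraries was tested. Intervals given below are exact 95% intervals, which cover counting error only, and cells of 1 library were not treated as replicates. In the WT library 5736 of 5998 barcodes were kept, with a median of 3128 UMIs per cell, and in the Bmx-CreER Wls library 6620 of 6825 were kept, with a median of 3067. The libraries shared 49 barcodes, 48 of them among the kept cells of each. Cells were sorted into 21 classes by clustering without the 10 genes and their pathway lists, and the hypertrophic and osteolineage clusters were clustered once more. Hypertrophic chondrocyte-like cells had all 5 of their measured marker genes at over 2-fold the level of the remaining cells, osteoblast-like cells had 10 of 10 and Cxcl12-rich osteolineage-like cells 9 of 10. A blood cluster led by Mpo, Myb and Prtn3 held markers of stem and progenitor, myeloid, mast, megakaryocyte and erythroid cells at once, so it was given no cell type name. Wls itself gave 10 UMIs (40.5 CPM, UMIs per 1000000 UMIs of the class) in the arterial endothelial-like cells of the WT library and 3 UMIs (10.7 CPM) in those of the mutant library, against 358 and 337 CPM in osteoblast-like cells, and whether the counted reads lay in the deleted part of the gene is not given.

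Bone mineral grows from calcium and phosphate, and pyrophosphate blocks it. The phosphatase encoded by Alpl removes pyrophosphate, Enpp1 makes it, and Phospho1 releases phosphate inside matrix vesicles, so the balance of these enzymes helps to set where crystals form. The SIBLING family (Ibsp, Spp1, Dmp1, Mepe and the dentin gene Dspp) encodes acidic secreted proteins that bind mineral and cell-surface integrins, Phex encodes an endopeptidase of late osteoblasts and osteocytes, and Bglap and Bglap2 encode osteocalcin, a vitamin K-dependent protein of mature osteoblasts.

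The SIBLING genes lie side by side, which is why their positions and start regions are shown first. In the GRCm38 annotation Dmp1 (chr5:104202613-104214102), Ibsp (chr5:104299171-104311469), Mepe (chr5:104325329-104338611) and Spp1 (chr5:104435118-104441050) follow each other on the plus strand within 238.4 kb, and Dspp lies upstream of them, 270.3 kb from its start to the end of Spp1. The osteocalcin genes Bglap2 (chr3:88377736-88378699) and Bglap (chr3:88383501-88384464) lie on the minus strand within 15.85 kb, together with Bglap3. Alpl lies on chromosome 4, Enpp1 on chromosome 10, Phospho1 on chromosome 11 and Phex on chromosome X. RUNX factors, which include the osteoblast regulator Runx2, bind a core of TGTGGT, which on the other strand reads ACCACA. This core was searched on both strands in the 250 bases before each RefSeq start site and was present in 4614 of 32851 mouse promoters (14.05%). Of the 10 genes, 9 had RefSeq entries, 12 start sites in all, and 5 of the 12 held a match. The windows with a match of the SIBLING genes and of Bglap are printed 5′ to 3′ on the strand of the gene, with the core in capitals.

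Spp1, chr5:104434861-104435110, plus strand: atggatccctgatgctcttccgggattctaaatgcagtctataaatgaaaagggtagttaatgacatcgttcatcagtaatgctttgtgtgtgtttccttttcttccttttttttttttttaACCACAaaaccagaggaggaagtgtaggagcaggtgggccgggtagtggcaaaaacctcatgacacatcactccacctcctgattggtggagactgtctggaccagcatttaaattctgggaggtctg
Mepe, chr5:104325079-104325328, plus strand: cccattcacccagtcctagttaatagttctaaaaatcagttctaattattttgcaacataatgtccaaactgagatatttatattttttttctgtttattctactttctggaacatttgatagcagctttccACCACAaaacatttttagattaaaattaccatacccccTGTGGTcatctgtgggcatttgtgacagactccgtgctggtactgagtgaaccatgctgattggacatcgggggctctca
Dmp1, chr5:104202367-104202616, plus strand: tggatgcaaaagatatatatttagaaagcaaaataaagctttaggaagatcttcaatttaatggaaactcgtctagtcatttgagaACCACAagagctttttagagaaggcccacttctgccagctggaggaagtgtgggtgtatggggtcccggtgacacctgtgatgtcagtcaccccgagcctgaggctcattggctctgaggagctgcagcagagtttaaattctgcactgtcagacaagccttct
Bglap, chr3:88384467-88384716, minus strand: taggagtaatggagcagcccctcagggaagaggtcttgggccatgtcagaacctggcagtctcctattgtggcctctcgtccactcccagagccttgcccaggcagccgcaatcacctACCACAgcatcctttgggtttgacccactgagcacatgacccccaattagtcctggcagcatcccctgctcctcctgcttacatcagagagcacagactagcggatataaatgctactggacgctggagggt

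These sequences are RefSeq's, build GRCm38.p6. The core began 128 bases before the start in Spp1, 118 and 80 bases before it in Mepe, 164 bases before it in Dmp1 and 132 bases before it in Bglap. Enpp1, which was not restricted to bone cells, held 1 match as well, at 144 bases. Windows of Ibsp, Alpl, Phospho1 and Phex and the other windows of Spp1 and Dmp1 did not hold these letters. A match is a description of sequence and no measure of binding.

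Across the 21 classes the genes fell into different territories. Ibsp, Dmp1, Mepe, Bglap and Bglap2 were highest in osteolineage cells, Alpl and Phex were shared between osteolineage cells and hypertrophic chondrocytes, Spp1 reached further into a cartilage cluster and into osteoclasts, and Enpp1 lay mostly in cartilage and stroma. The share of each gene's UMIs shows this best. Of the Ibsp UMIs, 76.4% in the WT library and 76.5% in the Bmx-CreER Wls library were in osteoblast-like cells, which made up 2.005% and 1.07% of the cells. Of the Alpl UMIs, 55.1% and 66.4% were in hypertrophic chondrocyte-like cells. Of the Enpp1 UMIs, 60.8% and 76.0% were in cartilage cells other than the hypertrophic ones.

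**Figure D1:**
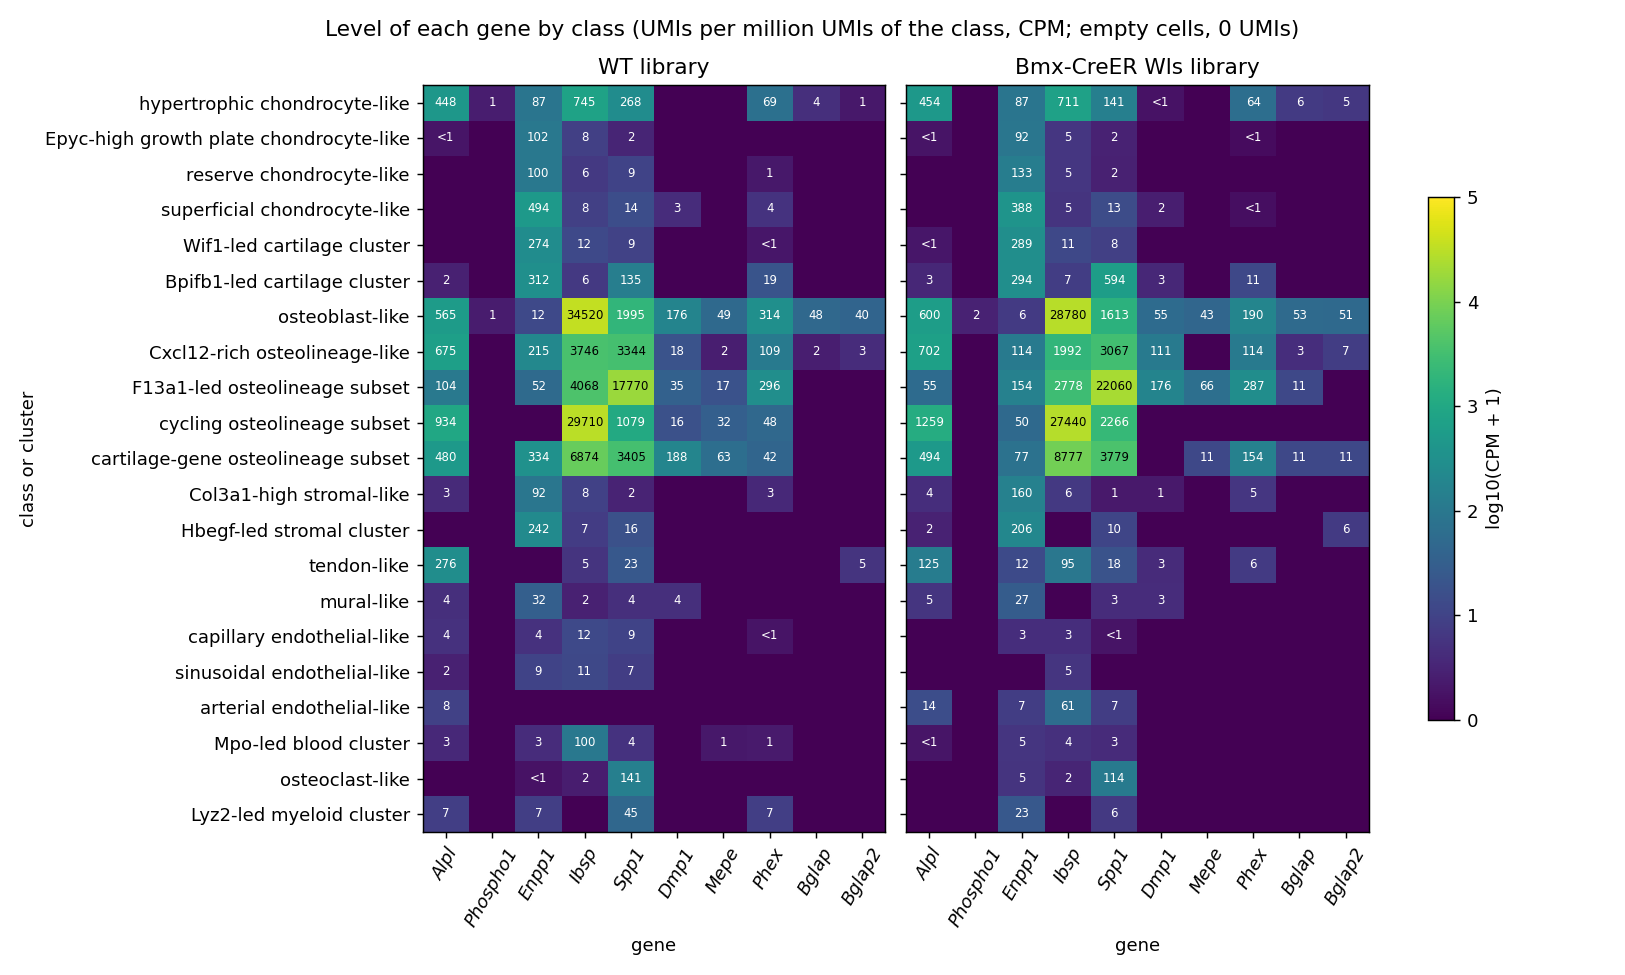
Level of each of the 10 genes (columns) in each of the 21 classes (rows) in the WT library (left) and the Bmx-CreER Wls library (right), with CPM printed in each cell and colour giving log10(CPM + 1). Osteoblast-like cells hold the highest Ibsp level (34520 and 28780 CPM) and the F13a1-led osteolineage subset, so named by its cluster only, the highest Spp1 level (17770 and 22060 CPM), while Phospho1 is nearly empty throughout.

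**Figure D2:**
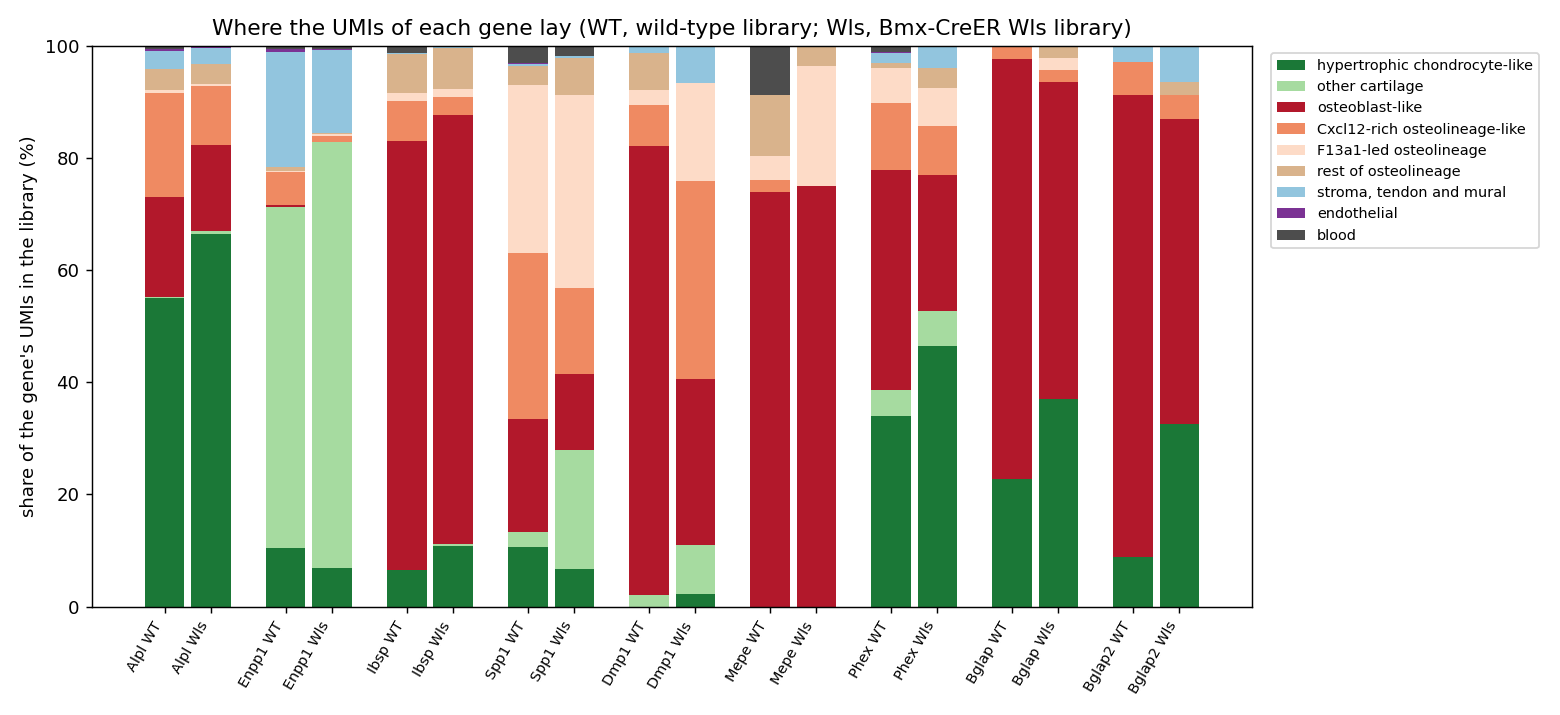
Share of each gene's UMIs (y axis, %) by compartment, as stacked bars that sum to the whole library, for both libraries of each gene. Osteoblast-like cells hold most of the Ibsp UMIs (76.4% and 76.5%), hypertrophic chondrocyte-like cells most of the Alpl UMIs (55.1% and 66.4%), and cartilage cells other than these most of the Enpp1 UMIs (60.8% and 76.0%).

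Alpl, the tissue-nonspecific alkaline phosphatase, was at 448 to 702 CPM in hypertrophic chondrocyte-like, osteoblast-like and Cxcl12-rich cells of both libraries. In the WT library it was at 448 CPM (423 to 474) in hypertrophic chondrocyte-like cells, 565 CPM (510 to 624) in osteoblast-like cells and 675 CPM (611 to 744) in Cxcl12-rich osteolineage-like cells. The Bmx-CreER Wls library gave 454, 600 and 702 CPM in the same order, and the intervals of the osteoblast-like and Cxcl12-rich cells overlapped in both libraries. The cells of the class differed in detection, since 87.8% and 87.3% of osteoblast-like cells had an Alpl UMI but only 51.7% and 62.3% of hypertrophic chondrocyte-like cells did, at median depths between 5896 and 7199 UMIs. Outside the hypertrophic and osteolineage classes, tendon-like cells, led by the tendon marker Tnmd, were the only class above 15 CPM, with 276 CPM (211 to 356) in the WT and 125 CPM (89.8 to 170) in the Bmx-CreER Wls library. In the WT tendon-like cells Ibsp gave 1 UMI beside 60 Alpl UMIs, while osteoblast-like cells held 1.64 Alpl UMIs per 100 Ibsp UMIs. Sp7 was at 69.1 and 27.5 CPM in the tendon-like cells of the WT and the mutant library.

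Phospho1, the phosphatase of matrix vesicles, gave 5 UMIs in the whole WT library and 1 in the Bmx-CreER Wls library. Of these, 4 lay in hypertrophic chondrocyte-like and 2 in osteoblast-like cells. In the mutant hypertrophic chondrocyte-like cells 0 UMIs were counted, which allows a level of up to 1.08 CPM (3 counts). At this depth no statement on its distribution was possible.

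Enpp1, which generates pyrophosphate, was low in osteoblast-like cells, where Ibsp was highest, and higher in Cxcl12-rich cells. The smaller osteolineage subsets, described below, did not all run opposite to Ibsp. Enpp1 was at 334 and 76.9 CPM in the cartilage-gene subset and at 52.15 and 154 CPM in the F13a1-led subset. It gave 0 and 1 UMIs in the cycling cells. Osteoblast-like cells gave only 8 Enpp1 UMIs (11.6 CPM, 4.99 to 22.8) in the WT and 3 UMIs (6.13 CPM, 1.26 to 17.9) in the Bmx-CreER Wls library, in 3.48% and 4.23% of cells. Cxcl12-rich cells were at 215 CPM (180 to 256) and 114 CPM (78.5 to 160), and hypertrophic chondrocyte-like cells at 87.2 and 87.1 CPM. The highest levels were in superficial chondrocyte-like cells, which line the joint and express Prg4, at 494 CPM (450 to 542) in the WT and 388 CPM (361 to 418) in the mutant library. Among the cartilage classes the Bpifb1-led cluster came next at 312 and 294 CPM and the Wif1-led cluster at 274 and 289 CPM, whose intervals overlapped in each library. Per 100 Alpl UMIs there were 2.05 and 1.02 Enpp1 UMIs in osteoblast-like cells, 19.5 and 19.2 in hypertrophic chondrocyte-like cells and 31.9 and 16.3 in Cxcl12-rich cells. Within the Cxcl12-rich cells Enpp1 was highest in a subset led by Mmp9, Lpl and Thy1, at 355 CPM (279 to 445) in the WT and 229 CPM (134 to 367) in the mutant library, and that subset had the lower Ibsp level of both, 772 against 5344 CPM in the WT library and 364 against 2552 CPM in the mutant.

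Ibsp, bone sialoprotein, was the most concentrated of the abundant members. In osteoblast-like cells it was at 34520 CPM (34090 to 34960) in the WT and 28780 CPM (28310 to 29260) in the Bmx-CreER Wls library, with a UMI in 114 of 115 and 71 of 71 cells. Single osteoblast-like cells ranged widely, with medians of 32930 and 23970 CPM, middle ranges of 15070 to 47730 and 12210 to 38090 CPM, and highest cells of 105700 and 66150 CPM. In all, 50% of the Ibsp UMIs came from 38 cells of the WT library and from 23 of the mutant library. The few cycling osteolineage cells (11 and 3) were at 29710 and 27440 CPM, with intervals under those of the osteoblast-like cells in the WT library and overlapping them in the mutant. Outside the osteolineage, hypertrophic chondrocyte-like cells stood at 745 and 711 CPM, and every class of endothelial cells of the WT library was under 12 CPM, with a UMI in at most 3.95% of cells at a median depth of about 3030 UMIs. The middle of the range was held by the cartilage-gene osteolineage subset, with 6874 and 8777 CPM from 8 and 13 cells, by Cxcl12-rich cells, with 3746 CPM (3593 to 3904) and 1992 CPM (1832 to 2161), and by the F13a1-led subset, with 4068 and 2778 CPM. The cartilage-gene subset was led within the osteolineage by Comp, Lect1 and Col9a1. Its median doublet scores, 0.249 and 0.135, were the highest of the 21 classes, and its part of doublets was not tested. In the WT library the Cxcl12-rich cells and the F13a1-led subset (3707 to 4454 CPM) had overlapping intervals.

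Spp1, osteopontin, did not follow Ibsp. It was highest in a small F13a1-led subset of 25 WT and 17 mutant cells, called osteolineage only because it fell in the osteolineage cluster, where it reached 17770 CPM (17000 to 18550) and 22060 CPM (21100 to 23050) and was present in every cell. The cartilage-gene osteolineage subset (3405 and 3779 CPM) and Cxcl12-rich cells (3344 and 3067 CPM) came next, with overlapping intervals in the WT library, and osteoblast-like cells were at 1995 CPM (1891 to 2103) and 1613 CPM (1503 to 1730). As for Ibsp, the part of doublets in the cartilage-gene subset was not tested. The 3 cycling osteolineage cells of the mutant library were at 2266 CPM (1653 to 3032), an interval that overlapped that of its osteoblast-like cells. Levels of these 2 genes were not scaled by transcript length, so only the change of their ratio between classes is read here. Per 100 Ibsp UMIs there were 5.78 and 5.61 Spp1 UMIs in osteoblast-like cells, 89.3 and 154 in Cxcl12-rich cells and 437 and 794 in the F13a1-led subset. The same order of the ratio was seen cell by cell. More Ibsp than Spp1 UMIs were found in 93.9% and 97.2% of osteoblast-like cells, and more Spp1 than Ibsp UMIs in 96.0% and 94.1% of cells of the F13a1-led subset. The F13a1-led cells also held Col10a1, the collagen of hypertrophic cartilage, at 45660 and 40540 CPM. It was at 26790 and 25390 CPM in hypertrophic chondrocyte-like cells and at 467 and 658 CPM in osteoblast-like cells. Ifitm5, an osteoblast gene, gave 0 UMIs in the F13a1-led cells of both libraries. Col1a1 was at 1443 and 529 CPM in them, against 1518 and 4894 CPM in hypertrophic chondrocyte-like and 155900 and 128400 CPM in osteoblast-like cells. By Col10a1, Ifitm5 and Col1a1 the subset was nearer to the hypertrophic class than to osteoblast-like cells, but its other markers were mixed. Of the hypertrophic markers 3 of 5 were at over 2-fold the level of the remaining cells, and of the general chondrocyte markers 0 of 11. Of the osteoblast markers 4 of 10 were, and of the Cxcl12-rich osteolineage markers 5 of 10. Median doublet scores of the F13a1-led cells were 0.0597 and 0.0952, against 0.0217 and 0.0380 in osteoblast-like cells, and the part of doublets in the subset was not tested.

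**Figure D3:**
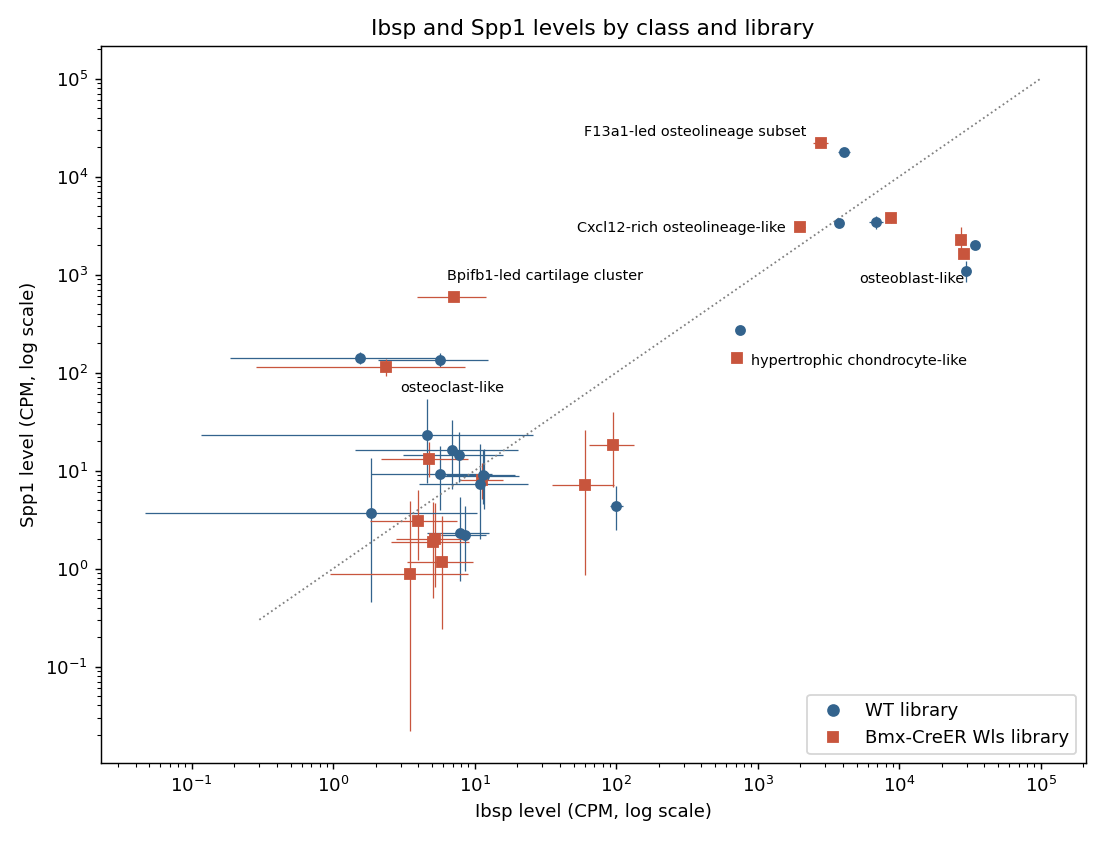
Level of Ibsp (x axis, CPM) against Spp1 (y axis, CPM), both on log scales, for the 36 of 42 combinations of class and library in which both genes had a UMI; lines are 95% Poisson intervals and the dotted line marks equal CPM. Osteoblast-like cells lie below the line and the F13a1-led subset, the Bpifb1-led cartilage cluster and osteoclast-like cells above it in both libraries.

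Dmp1 and Mepe, SIBLING genes of late osteoblasts and osteocytes, were rare. Dmp1 gave 152 UMIs in the WT and 91 in the Bmx-CreER Wls library, with 122 and 27 of them in osteoblast-like cells, where 27.0% and 19.7% of cells had a UMI. Mepe gave 46 and 28 UMIs, of which 34 (49.1 CPM, 34.0 to 68.6) and 21 (42.9 CPM, 26.6 to 65.6) were in osteoblast-like cells. Both were close to absent from hypertrophic chondrocyte-like cells, with 0 and 2 Dmp1 UMIs and 0 Mepe UMIs in either library, which for Mepe allows up to 1.11 CPM in the WT and 1.08 CPM in the mutant library. Dmp1 in Cxcl12-rich cells rested on few cells. It was at 18.2 CPM (11 UMIs in 8 cells) in the WT library and at 111 CPM in the mutant library, where 32 UMIs came from 4 cells and 16 of them from 1 cell.

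Phex, whose product is needed to keep phosphate in balance, was at 314 CPM (273 to 358) in osteoblast-like cells of the WT and 190 CPM (153 to 233) in those of the Bmx-CreER Wls library, with a UMI in 69 of 115 and 40 of 71 cells. The F13a1-led subset was at 296 and 287 CPM with intervals that overlapped those of the osteoblast-like cells in both libraries. Cxcl12-rich cells followed at 109 and 114 CPM and hypertrophic chondrocyte-like cells at 69.4 and 63.8 CPM. Because hypertrophic cells were numerous, they held 34.0% of the WT and 46.5% of the mutant Phex UMIs. The Bpifb1-led cluster was the only other cartilage class above 5 CPM, with 20 and 22 UMIs (18.9 and 11.2 CPM).

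Few osteocalcin UMIs were counted. Bglap gave 44 UMIs in the WT and 46 in the Bmx-CreER Wls library, 33 and 26 of them in osteoblast-like cells (47.7 and 53.1 CPM), and Bglap2 gave 34 and 46, with 28 and 25 in osteoblast-like cells (40.4 and 51.1 CPM). Between 12.7% and 15.7% of osteoblast-like cells had a UMI of either gene. The copies could not be told apart with certainty. Of the 366 windows of 75 bases along the Bglap transcript, 242 (66.1%) were also present in the Bglap2 transcript, and how reads that fit several places were counted is not given in the sources used here, so the counts of both copies are uncertain in size as well. Hypertrophic chondrocyte-like cells gave 10 and 17 Bglap and 3 and 15 Bglap2 UMIs.

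Osteoblast-like cells were then set against hypertrophic chondrocyte-like cells, the other mineralizing cell type of the growth plate. Of 8423 genes with at least 50 UMIs in these classes, 6.11% were at least 2-fold higher in osteoblast-like cells in both libraries, and 12.2% were at least 2-fold higher in hypertrophic chondrocyte-like cells. Of the 9 genes tested here 7 were on the osteoblast side (Ibsp, Spp1, Dmp1, Mepe, Phex, Bglap and Bglap2) and 1, Enpp1, on the hypertrophic side, with a median ratio of 12.9 and 9.50 against 0.893 and 0.941 over all genes. Mepe (34 and 21 UMIs in osteoblast-like and 0 in hypertrophic cells) and Dmp1 (122 and 27 against 0 and 2) passed the UMI minimum through osteoblast-like cells, which fixed their side. Bglap (33 and 26 against 10 and 17) and Bglap2 (28 and 25 against 3 and 15) also passed it only through osteoblast-like cells, which favoured that side. Enpp1 passed it through hypertrophic cells (236 and 243 UMIs, against 8 and 3 in osteoblast-like cells). The count and median are therefore no support. Ibsp was 46.3-fold (44.3 to 48.5) and 40.4-fold (38.6 to 42.4) higher in osteoblast-like cells, Spp1 7.43-fold and 11.4-fold, and Phex 4.51-fold and 2.98-fold. Alpl had the smallest ratio, at 1.26-fold (1.12 to 1.42) and 1.32-fold (1.16 to 1.501). The hypertrophic class was mixed in Alpl, by the subsets described below. In the WT library its R3hdml-led and Lipg-led subsets were at 981 and 1191 CPM, above the 565 CPM of osteoblast-like cells. Its cycling subset was at 37.0 CPM. In the mutant library the same subsets were at 842, 1056 and 48.5 CPM, against 600 CPM in osteoblast-like cells. Enpp1 was 7.54-fold (3.77 to 17.7) and 14.2-fold (4.81 to 69.4) higher in hypertrophic chondrocyte-like cells. For Dmp1 and Mepe the WT hypertrophic class held 0 UMIs, and its 3-count level of 1.11 CPM stood against 176 and 49.1 CPM in WT osteoblast-like cells.

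The hypertrophic class varied within itself, and no order of its subsets was tested. Its 8 subsets ran from cells with almost no Col10a1 to cells with 91830 CPM in the WT and 107300 CPM in the Bmx-CreER Wls library, in a subset led by Lipg and Aldh1a3. Alpl was at 413 CPM (344 to 493) and 500 CPM (409 to 606) in the Cbln2-led subset, where Col10a1 was at 38300 and 47380 CPM. Ibsp was low there, at 16.5 CPM (5.37 to 38.6) and 81.0 CPM (47.2 to 130). In the R3hdml-led and Lipg-led subsets Alpl stood at 981 and 1191 CPM in the WT library and 842 and 1056 CPM in the mutant. Ibsp stood there at 1376 and 1591 CPM in the WT library and 1260 and 1372 CPM in the mutant. Enpp1 varied less, with 64.8 to 161 CPM over the 8 WT subsets and overlapping intervals for most of them. Spp1 was high in the R3hdml-led and Lipg-led subsets of the WT library (686 and 974 CPM) and also in the Slc40a1-led subset (663 CPM), where the WT Ibsp level was 60.9 CPM.

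**Figure D4:**
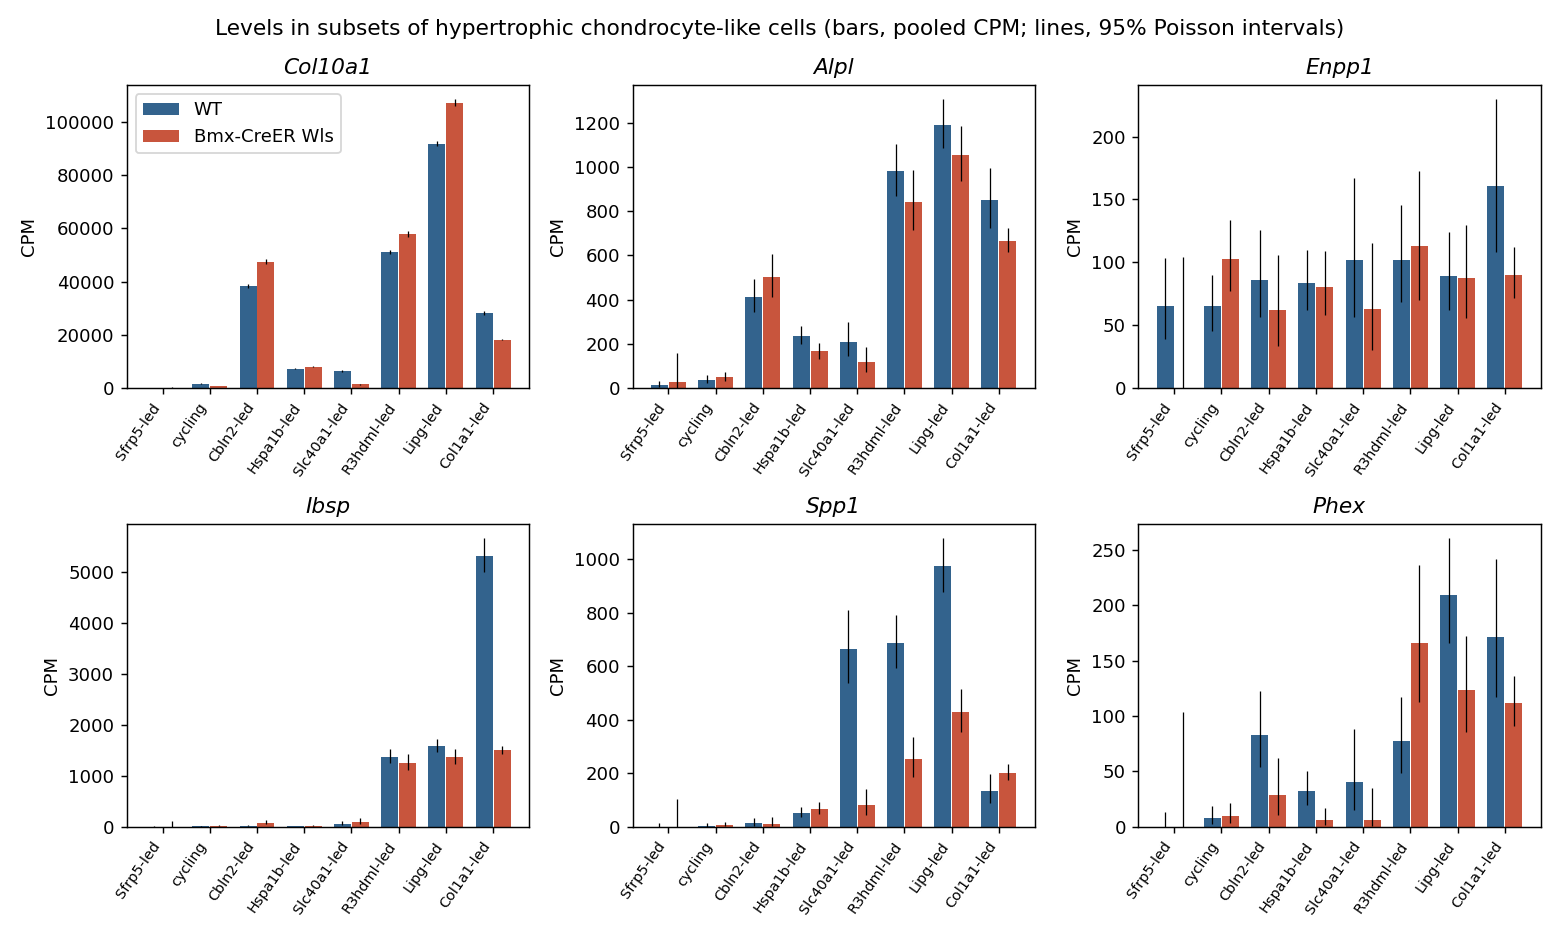
Levels (y axes, CPM, from 0) of Col10a1, Alpl, Enpp1, Ibsp, Spp1 and Phex in the 8 subsets of hypertrophic chondrocyte-like cells in both libraries; bars are pooled CPM and lines 95% Poisson intervals. Alpl is present in the Cbln2-led subset (413 and 500 CPM) in which Ibsp is at 16.5 and 81.0 CPM, and both are high in the R3hdml-led and Lipg-led subsets.

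A Col1a1-led subset of the hypertrophic class held 27 WT and 142 mutant cells. It expressed Col10a1 at 28100 and 18150 CPM and Ihh, a secreted growth plate signal, at 718 and 667 CPM, and its Ibsp level was 5328 CPM (5002 to 5670) in the WT and 1507 CPM (1426 to 1590) in the Bmx-CreER Wls library. Because it was mostly of 1 library, each hypertrophic value was also computed without it, a choice made after seeing the data. Without it Ibsp in hypertrophic chondrocyte-like cells was 0.0118 of the osteoblast-like level in the WT and 0.0120 of it in the mutant library, against 0.0216 and 0.0247 with it.

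In the comparison of the libraries, osteoblast-like cells of the Bmx-CreER Wls library had lower Ibsp, Spp1, Dmp1 and Phex levels than those of the WT library, while the intervals of the ratios of Alpl, Mepe, Bglap and Bglap2 included 1. Of 3137 genes with at least 50 UMIs in this class, 4.43% were at least 1.5-fold lower and 7.33% at least 1.5-fold higher in the mutant library. Of the 8 genes tested here 2 were lower by that measure, Dmp1 and Phex, and 0 higher, and their median ratio was 0.853 against 1.05 over all genes. Dmp1 was at 176 CPM (146 to 210) in the WT and 55.1 CPM (36.3 to 80.2) in the mutant library, a ratio of 0.313 (0.198 to 0.478), and the ratio lay between 0.278 and 0.423 over the alternative settings. In the WT library 3 osteoblast-like cells had 10 or more Dmp1 UMIs, the highest 25, and in the mutant library the highest cell had 5. In the osteoblast-like subset led by Ifitm5 and Car3 (78 and 46 cells) Dmp1 was at 177 and 31.2 CPM, and in the one led by Jun and Fosb (37 and 25 cells) at 175 and 89.5 CPM. The Phex ratio was 0.606 (0.470 to 0.776), between 0.506 and 0.680 over the alternatives, with 260 and 170 CPM in the Ifitm5-led and 392 and 219 CPM in the Jun-led subset. Ibsp had a ratio of 0.834 (0.816 to 0.851) and Spp1 of 0.809 (0.740 to 0.883), and per 1000 Col1a1 UMIs the Ibsp count was 221 and 224. Alpl had a ratio of 1.06 (0.911 to 1.24). These ratios come from 115 and 71 cells of 1 library each, and less RNA of a gene per cell and another mixture of cells within the class cannot be told apart.

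**Figure D5:**
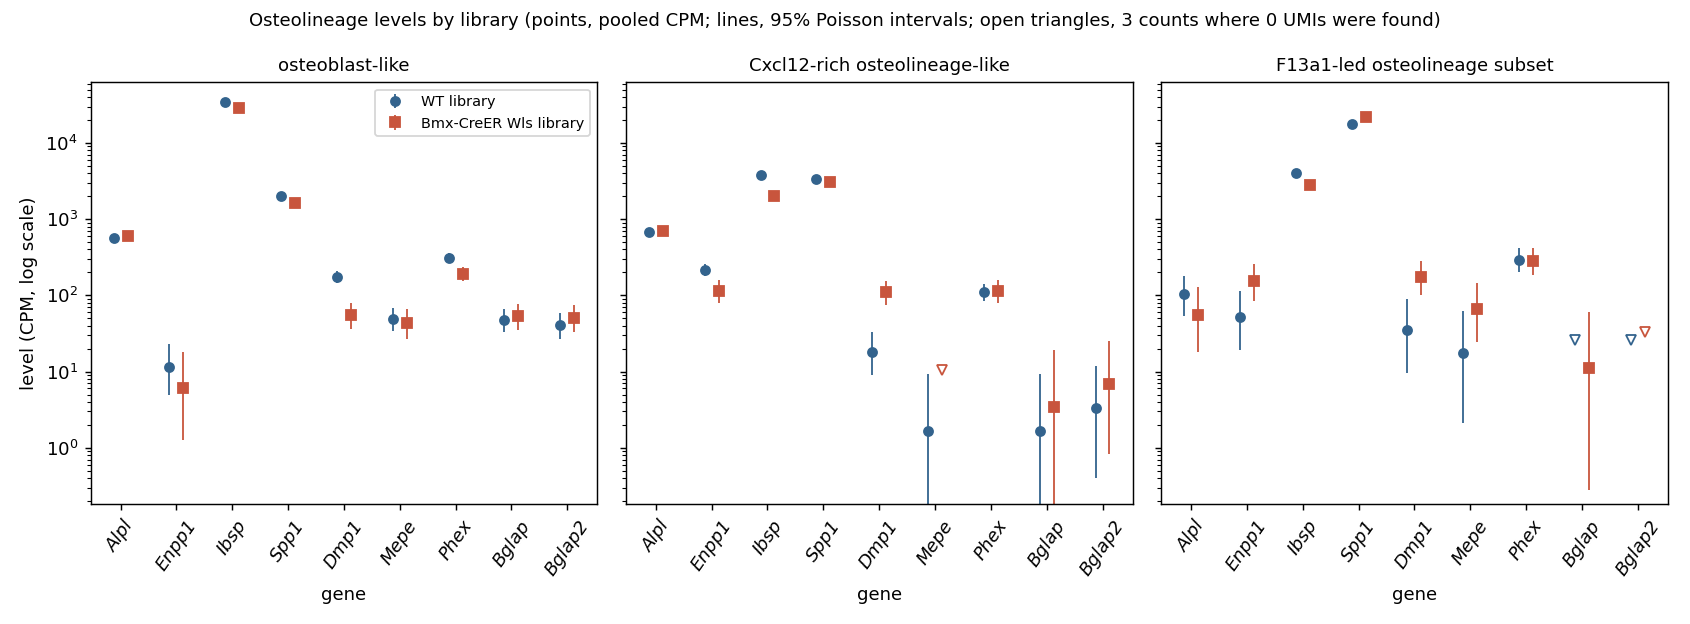
Level (y axis, CPM, log scale) of the genes other than Phospho1 in osteoblast-like cells, Cxcl12-rich osteolineage-like cells and the F13a1-led osteolineage subset, for both libraries; points are pooled CPM, lines 95% Poisson intervals and open triangles the level of 3 counts where 0 UMIs were found. In osteoblast-like cells Dmp1 (176 and 55.1 CPM) and Phex (314 and 190 CPM) are, of the 8 members with at least 50 UMIs in that class, those more than 1.5-fold lower in the Bmx-CreER Wls library, and Enpp1 (8 and 3 UMIs there) is lower in osteoblast-like than in Cxcl12-rich cells.

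In Cxcl12-rich cells Ibsp had a ratio of 0.532 (0.484 to 0.583) and Enpp1 of 0.530 (0.350 to 0.782), where 7.34% of 3461 genes were at least 1.5-fold lower and 6.44% higher, and the Alpl ratio was 1.04 (0.874 to 1.23). Dmp1 in these cells had a ratio of 6.08 (2.98 to 13.4), from 11 and 32 UMIs, and in the F13a1-led subset it was at 34.8 and 176 CPM, from 4 and 16 UMIs in 2 cells each. The Ibsp value depended on the clustering and was 1.21 when each library was clustered alone. In hypertrophic chondrocyte-like cells Spp1 had a ratio of 0.526 (0.464 to 0.595), while Alpl, Enpp1, Ibsp and Phex lay between 0.919 and 1.02. There 4.45% of 7795 genes were at least 1.5-fold lower and 5.84% higher. Without the Col1a1-led subset the Spp1 ratio was 0.407 and the Alpl and Ibsp ratios were 0.855 and 0.853. Spp1 was lower in the mutant cells of the Lipg-led (974 and 428 CPM), R3hdml-led (686 and 252 CPM) and Slc40a1-led (663 and 81.5 CPM) subsets, and in the Col1a1-led subset it was at 134 and 202 CPM. The shares of cells with an Spp1 UMI were close, at 45.1% and 42.4% in the Lipg-led and 39.6% and 36.7% in the R3hdml-led subset. In the Slc40a1-led subset only 10 WT and 4 mutant cells had one.

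In the Bpifb1-led cartilage cluster, whose leading genes include Stc1 and Ngfr, Spp1 was the higher in the mutant library. It was at 135 CPM (114 to 159) in the WT and 594 CPM (560 to 629) in the Bmx-CreER Wls library, a ratio of 4.40 (3.69 to 5.27), where 7.60% of 7185 genes were at least 1.5-fold higher and 4.61% lower, and 1 of the 2 genes tested, Spp1, was higher. The share of cells with a UMI was 10.2% (43 of 423) and 28.2% (179 of 634), at median depths of 2315 and 2820 UMIs, while in the reserve chondrocyte-like cells, at median depths of 2506 and 2734, it was 1.61% and 0.421%. The ratio lay between 3.74 and 4.60 over the 7 alternatives that kept the cluster. This cluster was compared after its levels had been seen. Ibsp in the same cells gave 6 and 14 UMIs, so Spp1 stood at 2383 and 8357 UMIs per 100 Ibsp UMIs, far from the osteoblast-like 5.78 and 5.61. Enpp1 in the cluster was at 312 and 294 CPM. In Col3a1-high stromal-like cells, which express Dpt and Clec3b, Enpp1 was at 91.97 CPM (82.4 to 102) in the WT and 160 CPM (145 to 176) in the mutant library, a ratio of 1.74 (1.499 to 2.01), where 7.04% of 9162 genes were at least 1.5-fold higher and 3.60% lower. In superficial chondrocyte-like cells the ratio of Enpp1 was 0.786 (0.698 to 0.886) and turned to 1.03 with 30 principal components, and there 5.72% of 6614 genes were at least 1.5-fold higher and 7.68% lower.

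Among blood cells Spp1 in osteoclasts stood out. Osteoclast-like cells, which resorb bone and had Ctsk at 16180 and 13530 CPM, expressed Spp1 at 141 CPM (121 to 163) in the WT and 114 CPM (92.1 to 139) in the Bmx-CreER Wls library. Of these cells 32.0% and 32.4% had a Spp1 UMI, against 1.20% and 1.33% of cells of the Mpo-led blood cluster (median depths of 7170 and 8020 UMIs in osteoclast-like cells and 7295 and 7506 in the Mpo-led cluster). After thinning each cell to 1000 UMIs the shares were 10.9% and 10.3% in osteoclast-like cells and 0% in the Mpo-led cluster. The osteoclast-like cells held 2 Ibsp UMIs in each library beside 183 and 97 Spp1 UMIs. Alpl, Dmp1, Mepe, Phex, Bglap and Bglap2 gave 0 UMIs in them in both libraries.

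The Mpo-led blood cluster of the WT library gave 372 Ibsp UMIs (100 CPM, 90.3 to 111), but 251 of them came from 1 cell, and 2 cells had 10 or more. With the 5% of cells of highest doublet score left out the level was 2.84 CPM. Per 100 Ibsp UMIs there were 4.30 Spp1 UMIs, near the 5.78 of osteoblast-like cells of that library. An Ibsp UMI was found in 2.40% of these cells and in 2.66% of those of the mutant library (9 UMIs, 3.95 CPM), and capillary, sinusoidal and arterial endothelial-like cells had shares from 0% to 4.48%. The 17 Ibsp UMIs in arterial endothelial-like cells of the mutant library, in which Wls was targeted, likewise came from 3 cells, 15 of them from 1. The 31 Ibsp UMIs of its tendon-like cells came from 6 cells, 24 of them from 1.

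The lists of other genes of the pathway held 42 genes, 38 of them in the files and 31 with at least 50 UMIs over the osteoblast-like and hypertrophic chondrocyte-like cells. Of the 31, 8 were at least 2-fold higher in osteoblast-like cells in both libraries, 6 in hypertrophic chondrocyte-like cells and 17 in neither, beside 6.11% and 12.2% of all genes tested, and the lists were not tested as sets. The osteoblast side included the collagen genes Col1a1 and Col1a2, Sparc and Ifitm5 of the bone matrix, the transcription factor Sp7 (686 and 635 against 227 and 234 CPM), the procollagen protease Bmp1 and Cd44, a receptor for osteopontin. The hypertrophic side held Mgp, which encodes an inhibitor of mineralization (1579 and 2868 against 89.6 and 118 CPM), Fam20c, the kinase that phosphorylates SIBLING proteins (40.6 and 42.6 against 8.67 and 8.17 CPM), the nucleotidase Nt5e (76.5 and 82.1 against 1.44 and 14.3 CPM), the nucleoside transporter Slc29a1, Pth1r and Col10a1. All 3 annexin genes were on neither side, and so was Smpd3, which is required for normal mineralization, with 594 and 609 CPM in osteoblast-like and 1132 and 1092 CPM in hypertrophic chondrocyte-like cells. Of the further copies, Bglap3 gave 2 UMIs in osteoblast-like cells, 1 in each library. In the enzyme list the phosphate transporter Slc20a2 was at 209 CPM in WT Cxcl12-rich cells, against 8.67 CPM in osteoblast-like and 21.8 CPM in hypertrophic chondrocyte-like cells of that library.

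Genes with the most similar pattern were ranked by the correlation of log2(CPM + 1) over the 42 combinations of class and library, which share their libraries and depth, among 11181 genes. Ibsp was closest to Entpd3 (r = 0.949), Car3 (0.917) and Slc36a2 (0.894). Spp1 was closest to Mmp13 (0.907), a collagenase of hypertrophic cartilage and bone, then to Entpd3 (0.854) and Slc36a2 (0.842). Alpl was closest to Dlx6 (0.889), Sp7 (0.872) and Ibsp (0.862), and Phex to Dkk1 (0.837), Spp1 (0.831) and 9930013L23Rik (0.830). Dmp1 was closest to Slc36a2 (0.767), Mmp13 (0.759) and Phex (0.752). Enpp1 stood apart from the bone genes, with Has2 (0.800), which encodes a hyaluronan synthase, Sdk2 (0.792) and Atp10a (0.777) as its nearest genes.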

How the data were processed

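Single cell libraries of E18.5 femur cells, 1 WT and 1 Bmx-CreER Wls, were read from tables of raw UMI counts per gene and cell, which the authors deposited. Per the labels, the authors' processing used bcl2fastq 2.19.1.403, UMI-tools 1.0.1, STAR 2.7.1a and Subread featureCounts 1.6.4 on mm10. How reads with several matches and read strand were counted is not given in the sources used here. Cells with over 200 and under 5000 genes and under 30% mitochondrial UMIs were kept. Both libraries were clustered together (scanpy 1.11.5, leidenalg 0.10.2, Python 3.11.15) on 1987 variable genes, with the members, the pathway lists and cell-cycle genes left out, using 11 principal components, 20 neighbours and a resolution of 0.5. Classes were named from marker lists. Scrublet called 38 WT and 0 Bmx-CreER Wls doublets, so it had not worked, doublets were kept, and an alternative left out the 5% highest scores. UMIs were summed per class and library and given per 1000000 (CPM) with exact Poisson intervals, ratios with conditional binomial intervals and shares of cells with Clopper-Pearson intervals (scipy 1.17.1). A gene counted as past a fold had at least 50 UMIs over both sides, and 1.5-fold (libraries) or 2-fold (classes, both libraries) was used. The ratio step was tested on simulated counts. All 10 members were described, and the 3 most alike genes were named, among genes with at least 200 UMIs, for the 6 members that reached that minimum themselves. Members and lists were chosen with earlier results of these data known.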

Additional observations from a re-analysis of the deposited data

How the results depend on the processing

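No paired analysis was possible because each genotype had 1 library, so the groups shared fewer than 2 replicate numbers. For the same reason no library could be left out. Counting depth limited Phospho1, Mepe, Bglap and Bglap2, and small subsets rested on few cells. Where values moved, the cause was not tested. Of 64 recomputed library ratios in osteoblast-like cells 59 stayed within their intervals and 0 turned direction. The Ibsp ratio was 0.799 at resolution 1.0, 0.803 as a mean over cells and 0.805 without the 5% highest Scrublet scores, and the Spp1 ratio was 0.718 with each library clustered alone and 0.976 as a mean over cells. For the ratio of hypertrophic to osteoblast-like cells in the WT library, clustering each library alone gave Alpl 0.672, Ibsp 0.0198 and Spp1 0.148, 30 principal components gave Ibsp 0.0231 and Spp1 0.172, resolution 1.0 gave Ibsp 0.0205, the stricter cell filter (1000 UMIs, 10% mitochondrial) gave Spp1 0.119, leaving out the highest Scrublet scores gave Spp1 0.1195, and leaving out the Col1a1-led subset gave Ibsp 0.0118. In the Bmx-CreER Wls library leaving out that subset gave Alpl 0.595, Ibsp 0.01205, Spp1 0.0703, Phex 0.220, Bglap 0.00985 and Bglap2 0.0512, 30 principal components gave Ibsp 0.0270 and Spp1 0.106, the mean over cells gave Ibsp 0.0283 and Phex 0.477, and leaving out the highest Scrublet scores gave Spp1 0.0722. Directions turned in Cxcl12-rich cells, where the library ratio of Ibsp was 1.21 and that of Spp1 1.17 with each library clustered alone, and that of Spp1 was 1.007 at resolution 1.0 and 1.008 with 30 principal components. The Dmp1 ratio of Cxcl12-rich to osteoblast-like cells in the mutant library was 0.807 as a mean over cells, and the Enpp1 library ratio in superficial chondrocyte-like cells was 1.03 with 30 principal components. In the Mpo-led blood cluster of the WT library, leaving out the highest Scrublet scores gave 2.84 CPM for Ibsp and 1.42 CPM for Spp1. Thinned to 1000 UMIs, the shares of that cluster with a UMI were 0.608% (WT) and 0.338% (mutant) for Ibsp and 0% in both for Spp1, and those of osteoclast-like cells were 10.9% and 10.3% for Spp1. The settings without the Col1a1-led subset and the comparisons in the Bpifb1-led, Col3a1-high and superficial classes were chosen after seeing the data.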
